A study of Homo sapiens with 6 samples.

Results

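Chromatin regions that were listed in both hairpin conditions of a human pluripotent stem cell line, and that had no counterpart in the untreated cells, numbered 24066, each counted once. The 3 deposited lists held 115751 regions in all, where a region shared by lists counts in each of them. MAR-seq had been used to map nuclear matrix attachment regions (MARs), the stretches of DNA that stay with the nucleus after detergent extraction and digestion. The cells were the H1 line of human pluripotent stem cells (hPSC), an established embryonic line. The labels give 3 treatments with 2 samples each, 6 samples in all: no treatment, a short hairpin RNA against HNRNPU (shHNRNPU), and a short hairpin RNA against LUC (shLUC). Each treatment had 1 deposited list, of 40106 regions for hPSC, 36277 for shHNRNPU and 39368 for shLUC, and all regions were 400 bp long. A member was chosen by position alone, as a shLUC region that overlapped a shHNRNPU region by at least 1 bp and overlapped no hPSC region.

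With 1 list per treatment there was no spread between samples, so no test between treatments was possible and none is given. Shares carry 95% Wilson intervals, which treat regions as separate counts and cover counting error only. The read depth behind the lists is unknown. No expression value was at hand to check the depletion of HNRNPU or the identity of the cells. The untreated cells differed from both hairpin groups in having received no hairpin, and the effects of the hairpin treatment, of culture and of library batch cannot be told apart.

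The nuclear matrix is the operationally defined scaffold of proteins and RNA left when soluble chromatin is removed, and MARs are the DNA that stays bound to it. HNRNPU, also called scaffold attachment factor A, is an abundant nuclear protein that binds both RNA and DNA and is among the best known proteins of this fraction. LUC is read here as luciferase, which human cells lack, so that its hairpin serves as the control for hairpin delivery. The digestion used enzymes with short recognition sequences: MspI cuts at CCGG, HaeIII at GGCC, RsaI at GTAC, AluI at AGCT, BamHI at GGATCC and PvuII at CAGCTG. All these sites read the same on both strands, and each PvuII site holds an AluI site.

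Promoters touched by members were rich in G and C and dense in these sites, and a few are shown here because the lists differed in the composition of the promoters they touched. The windows are from RefSeq on GRCh38.p14 and hold 300 bases, 250 before and 50 after a transcription start. Each is written 5′ to 3′ along the strand of its gene, in lower case, with the enzyme sites in capitals. Of a PvuII site, only the AluI site inside it is in capitals. The first 4 belong to genes of the nuclear matrix and pluripotency lists. SYNE2 and SYNE1 encode nesprins, which link the nuclear envelope to the cytoskeleton, LMNB2 encodes lamin B2 of the nuclear lamina, and KLF4 is a pluripotency transcription factor. The SYNE2 window lies at an internal start, chr14:63852754-63853053, and the member chr14:63852836-63853235 covered 218 of its bases. The SYNE1 window is chr6:152636841-152637140, on the minus strand, with 196 bases inside a member. The LMNB2 window is chr19:2456910-2457209, on the minus strand, with 48 bases inside a member. The KLF4 window is chr9:107489720-107490019, on the minus strand, with 45 bases inside a member.
SYNE2: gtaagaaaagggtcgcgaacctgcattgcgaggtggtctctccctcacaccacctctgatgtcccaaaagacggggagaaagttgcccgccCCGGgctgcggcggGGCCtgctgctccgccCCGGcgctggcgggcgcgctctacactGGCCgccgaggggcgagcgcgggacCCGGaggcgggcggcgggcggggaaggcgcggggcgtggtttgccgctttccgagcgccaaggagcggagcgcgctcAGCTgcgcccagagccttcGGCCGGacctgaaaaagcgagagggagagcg
SYNE1: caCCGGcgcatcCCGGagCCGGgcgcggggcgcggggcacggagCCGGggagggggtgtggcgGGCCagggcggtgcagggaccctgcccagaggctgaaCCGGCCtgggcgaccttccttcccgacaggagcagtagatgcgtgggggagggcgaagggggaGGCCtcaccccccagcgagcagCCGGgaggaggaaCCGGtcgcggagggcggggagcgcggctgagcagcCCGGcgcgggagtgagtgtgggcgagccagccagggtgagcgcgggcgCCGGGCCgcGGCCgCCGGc
LMNB2: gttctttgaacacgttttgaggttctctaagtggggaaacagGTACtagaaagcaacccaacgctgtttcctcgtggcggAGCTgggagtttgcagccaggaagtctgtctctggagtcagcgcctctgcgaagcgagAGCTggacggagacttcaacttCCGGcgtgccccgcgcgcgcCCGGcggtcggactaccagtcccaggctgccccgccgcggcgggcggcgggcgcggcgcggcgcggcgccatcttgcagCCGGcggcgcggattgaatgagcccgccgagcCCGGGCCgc
KLF4: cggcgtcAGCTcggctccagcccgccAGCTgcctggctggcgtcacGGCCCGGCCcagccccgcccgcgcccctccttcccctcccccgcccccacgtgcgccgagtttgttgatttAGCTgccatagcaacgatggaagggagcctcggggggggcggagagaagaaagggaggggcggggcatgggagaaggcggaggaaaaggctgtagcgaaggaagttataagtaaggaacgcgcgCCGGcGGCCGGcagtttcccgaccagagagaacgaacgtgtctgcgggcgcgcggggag
The next 2 windows, chosen after their values were seen, belong to developmental transcription factors and lay wholly inside a member. FOXD2, a forkhead factor, has its window at chr1:47437794-47438093 on the plus strand, in the member chr1:47437793-47438192. IRX4, an Iroquois homeobox factor, has its window at chr5:1887130-1887429 on the minus strand, in the member chr5:1887121-1887520.
FOXD2: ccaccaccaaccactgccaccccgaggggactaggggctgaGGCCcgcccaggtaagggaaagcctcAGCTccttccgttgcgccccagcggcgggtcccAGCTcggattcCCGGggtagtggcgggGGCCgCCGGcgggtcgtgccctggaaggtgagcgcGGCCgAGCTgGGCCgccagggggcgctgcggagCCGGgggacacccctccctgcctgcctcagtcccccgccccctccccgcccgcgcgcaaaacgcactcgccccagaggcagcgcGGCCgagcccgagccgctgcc
IRX4: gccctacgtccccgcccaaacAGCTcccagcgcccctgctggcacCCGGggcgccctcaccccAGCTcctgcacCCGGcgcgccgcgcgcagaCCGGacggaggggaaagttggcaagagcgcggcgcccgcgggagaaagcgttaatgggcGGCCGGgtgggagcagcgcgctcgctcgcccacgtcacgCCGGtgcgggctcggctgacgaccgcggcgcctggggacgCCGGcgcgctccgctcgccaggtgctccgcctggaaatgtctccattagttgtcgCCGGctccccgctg
The last window, also chosen after values were seen, was covered whole by a region found only in the untreated list. AURKB encodes a mitotic kinase, and the window is chr17:8210176-8210475 on the minus strand.
AURKB: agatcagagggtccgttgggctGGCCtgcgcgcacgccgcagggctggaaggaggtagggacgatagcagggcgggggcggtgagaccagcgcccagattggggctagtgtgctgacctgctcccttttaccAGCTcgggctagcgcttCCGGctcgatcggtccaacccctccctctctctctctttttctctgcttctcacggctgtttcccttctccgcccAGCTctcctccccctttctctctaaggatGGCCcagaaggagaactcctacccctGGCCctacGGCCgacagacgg
Of their bases, 71.7% were G or C in the SYNE2 window, 79.0% in that of SYNE1, 67.7% in that of LMNB2 and 69.0% in that of KLF4. The FOXD2 window held 76.7% and the IRX4 window 75%, with 44 CpG dinucleotides in the latter. The AURKB window held 63.7% and 19 CpG. Sites of the enzymes, PvuII set aside because it repeats AluI, numbered 15 in the SYNE1 window, 11 in that of FOXD2, 10 in that of IRX4, 9 in that of KLF4, 8 in those of SYNE2 and LMNB2, and 7 in that of AURKB. Windows of both kinds varied: among others that members covered whole, that of FOXP4 held 1 site and that of NKX2-8 64% G and C, and the window of GMNN, covered by a region only in hPSC, held 69.7% and 9 sites.

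The members made up most of what the hairpin lists had in common. Of the 39368 shLUC regions, 27868 (70.8%) overlapped a shHNRNPU region and 33759 (85.8%) overlapped no hPSC region, both shares being those that the choice of members used. Members were 61.1% of the shLUC list and 86.4% of the regions that the hairpin lists shared, and they covered 9.63 Mb. Read from the shHNRNPU list by the same rule, they numbered 24067. In 24065 of the 24066 members the region had the same start and end in both hairpin lists. The exception, chr1:241356903-241357302, shared 20 bp with its shHNRNPU counterpart. Of the 3802 shLUC regions that were in all 3 lists, 762 (20.04%) had the same start and end in hPSC. The coordinates of the hairpin lists thus matched far more often with each other than with those of the untreated list. How the lists were made to share coordinates is not given in the sources used here, and its part in the number of members was not tested.

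Just inside the limit, the member chr11:71518848-71519247 lay 1 bp from an hPSC region, and 185 members lay within 100 bp of one. Just outside it, the region chr3:85133861-85134260 shared 1 bp with an hPSC region and so counted as present in all 3 lists. Regions in all 3 lists that shared under 50% of their length with the hPSC region numbered 907. Most members were not near misses: 1167 (4.85%) had an hPSC region within 1 kb, 3995 (16.6%) within 5 kb and 79.4% within 50 kb. The median gap from a member to the nearest hPSC region was 19.5 kb (quartiles 7.78 and 42.8 kb). It was 18.4 kb for regions found only in shLUC and 17.7 kb for those only in shHNRNPU. Members therefore sat at about the same distance from the untreated regions as did the regions of a single hairpin list.

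Members lay mostly away from the ends of genes. The centre of a member was inside a protein-coding gene in 55.0% (54.4 to 55.7), inside other genes only in 12.2% and in no gene in 32.8%. For the regions in all 3 lists, 63.3% were inside a protein-coding gene. The share with the centre at most 1 kb from either boundary of such a gene was 9.12% (8.76 to 9.49) for members, 46.0% for regions in all 3 lists, 14.8% for regions only in hPSC, 10.1% for those only in shHNRNPU and 6.32% for those only in shLUC. The difference between members and regions in all 3 lists was -36.9 percentage points (95% Newcombe interval -38.5 to -35.2). Between members and regions only in shHNRNPU it was -0.97 points (-1.84 to -0.14), and against regions only in shLUC it was 2.79 points (2.18 to 3.39). Against regions only in hPSC it was -5.70 points (-6.23 to -5.16). Members thus lay between the regions of the single hairpin lists and below both classes found in the untreated list.

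That contrast lay mainly at the starts of genes. On the chromosomes with start sites at hand, which left out chromosome 8, 8.75% of members (8.39 to 9.12) had the centre within 1 kb of a start, against 46.7% of regions in all 3 lists and 15.7% of those only in hPSC. The gap between members and regions in all 3 lists was -37.9 points (-39.6 to -36.3). Within 200 bp of a start the shares were 4.28%, 29.4% and 9.58% in the same order. Within 1 kb of a 5′ end lay 6.21% of members and 38.2% of regions in all 3 lists, and within 1 kb of a 3′ end 1.44% (1.29 to 1.60) and 2.23% (1.80 to 2.77), a smaller contrast of the same direction. Near starts, 5.85% of members lay up to 1 kb downstream and 2.90% up to 1 kb upstream, and regions in all 3 lists leaned into the gene in the same way, with 32.6% and 14.0%. Regions only in hPSC were split more evenly, with 8.27% downstream and 7.39% upstream. The median distance from a member to a start was 29.4 kb, against 3.23 kb for regions in all 3 lists. It was 27.2 kb for regions only in shLUC, 25.5 kb for those only in shHNRNPU and 26.1 kb for those only in hPSC. In this distance it was thus the regions in all 3 lists that differed. The share within 1 kb of a start was 5.71% for regions only in shLUC and 9.47% for those only in shHNRNPU.

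**Figure D1:**
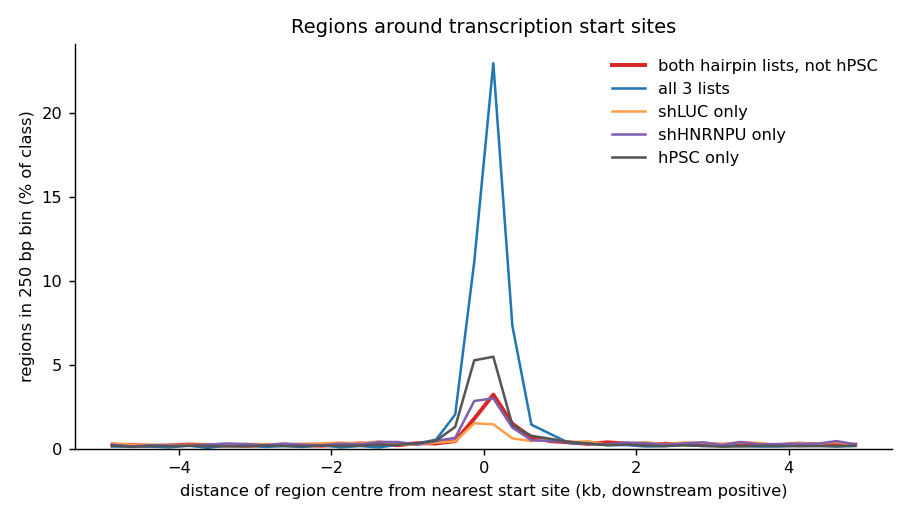
Share of each class of regions (vertical axis, % of the class, in bins of 250 bp) by distance of the region centre from the nearest transcription start (horizontal axis, kb, downstream positive), for members (red), regions in all 3 lists (blue), regions of 1 list only (orange, purple, grey). Members reached 3.23% in the first bin downstream of the start, far below the blue peak.

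The same contrast appeared on nearly every chromosome. The share near a gene end was lower in members than in regions of all 3 lists on 23 of 24 chromosomes, and on chromosome Y both shares were 0. On chromosome 19 it was 19.9% against 46.0%, and on chromosome 2 it was 7.23% against 41.3%. The share inside gene bodies was lower in members on 22 chromosomes and higher on chromosomes 17 and 21. Members numbered 8.28 per Mb over the autosomes, from 6.67 on chromosome 13 to 11.4 on chromosome 19, and 1.63 per Mb on chromosome X. They were 59.4% to 63.5% of the shLUC regions on each autosome and 53.5% on chromosome X.

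**Figure D2:**
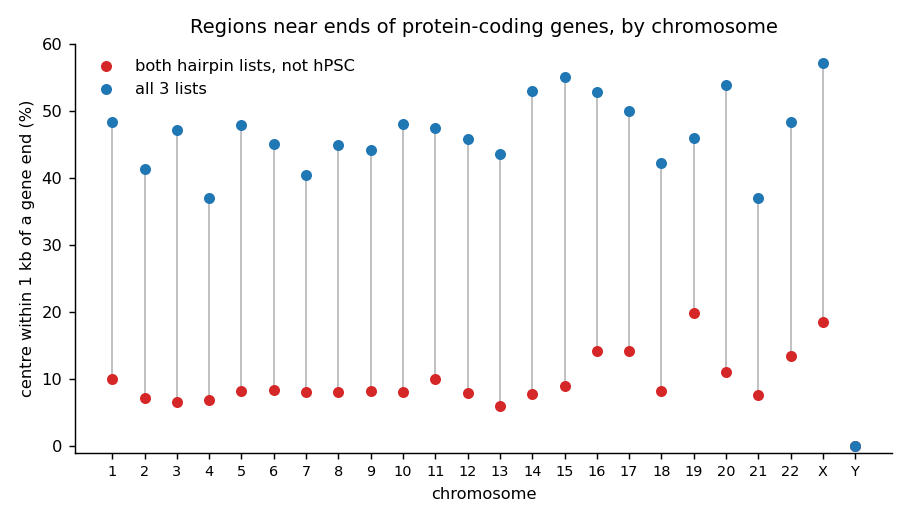
Share of regions with the centre at most 1 kb from either boundary of protein-coding genes (vertical axis, %) on each chromosome (horizontal axis), for members (red) and regions in all 3 lists (blue), joined by a grey line. Red lies below blue on 23 chromosomes, and both lie at 0 on chromosome Y.

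Inside long genes the members were spread almost evenly. Over 2761 protein-coding genes of at least 100 kb whose strand was known, 14.4% of 6518 members lay in the first 10% of the gene body, and each later stretch of 10% held between 8.78% and 10.4%. Of 915 regions in all 3 lists, 47.9% lay in that first stretch. The classes of a single list were close to the members there, with 14.1% for regions only in hPSC, 14.3% for those only in shHNRNPU and 11.2% for those only in shLUC. Members deep in a gene, over 50 kb from either end, were 16.3% of all members, against 8.13% of the regions in all 3 lists. The share was 15.5% for regions only in shLUC, 15.8% for those only in shHNRNPU and 14.9% for those only in hPSC, so it was the regions in all 3 lists that differed. A further 23.1% of members lay outside protein-coding genes and over 50 kb from any of them, against 13.8% of regions in all 3 lists and 19.5% to 21.7% of the classes of a single list.

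**Figure D3:**
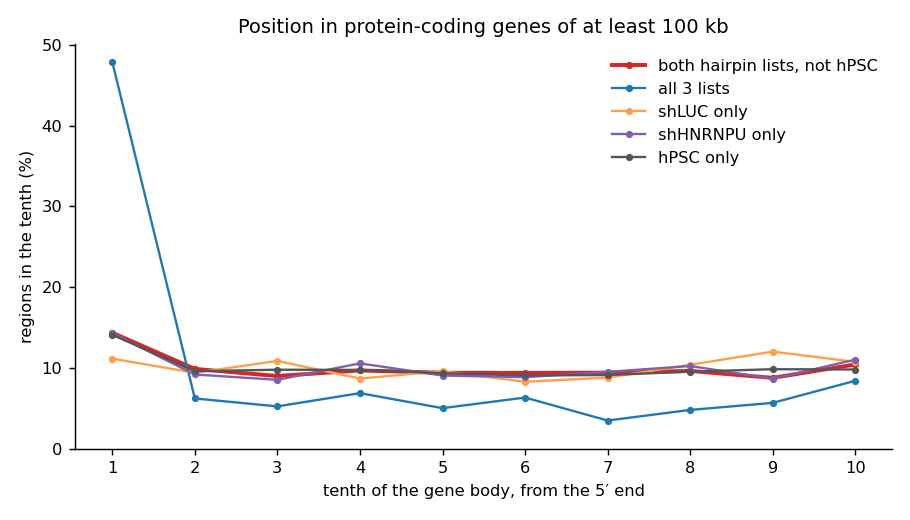
Share of regions (vertical axis, %) in each stretch of 10% of the body of protein-coding genes of at least 100 kb, counted from the 5′ end (horizontal axis), for members (red), regions in all 3 lists (blue) and regions of 1 list only. Members are nearly flat after the first stretch at 14.4%, where the blue line stands at 47.9%.

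Promoters touched by members were richer in G and C than those touched by untreated regions. A member touched 1578 of the 35116 promoter windows by at least 1 bp, and their median share of G and C was 73.3% (quartiles 67.7 and 77.6), against 58.7% over all windows and 65.7% in the 8129 windows touched by hPSC regions. The windows touched by regions in all 3 lists had a median of 71.7%, and those of regions only in hPSC one of 63.7%. Of the windows with at least 80% G and C, members touched 219 of 924, or 23.7% (21.1 to 26.5). They touched 13.3% of windows with 70 to under 80%, 4.68% with 60 to under 70%, 1.03% with 50 to under 60% and 0.127% with under 40%.

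The complete lists, which the choice of members did not trim, showed the same divergence at the GC-rich end. Among windows with at least 80% G and C, the shHNRNPU list touched 47.5% (44.3 to 50.7), the shLUC list 40.4% (37.3 to 43.6) and the hPSC list 25.4% (22.7 to 28.3). Between 50 and 60% the hPSC list was instead the highest, at 21.5%, with shHNRNPU at 5.48% and shLUC at 4.85%. The hairpin lists thus rose through every class of composition, and the hPSC list peaked at 38.5% in the class of 70 to under 80% and fell above it. In the class of 70 to under 80%, members touched 12.4% (11.1 to 13.9) of windows with at most 9 sites, 13.9% (12.5 to 15.5) of those with 10 to 12 and 13.6% (12.2 to 15.1) of those with over 12. The complete shLUC list touched 35.7% (33.8 to 37.8) of windows with at most 9 sites and 30.9% (28.9 to 32.9) of those with over 12, and the hPSC list 40.6% (38.6 to 42.7) and 35.3% (33.2 to 37.4). For the shHNRNPU list the values were 35.9% (33.9 to 37.9) and 34.3% (32.3 to 36.4). CpG moved with G and C, from a median of 9 CpG per window between 50 and 60% to 47 at 80% and over, and the number of sites from 5 to 14. Whether amplification, sequencing or peak calling treated GC-rich DNA alike in the 3 lists was not tested.

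**Figure D4:**
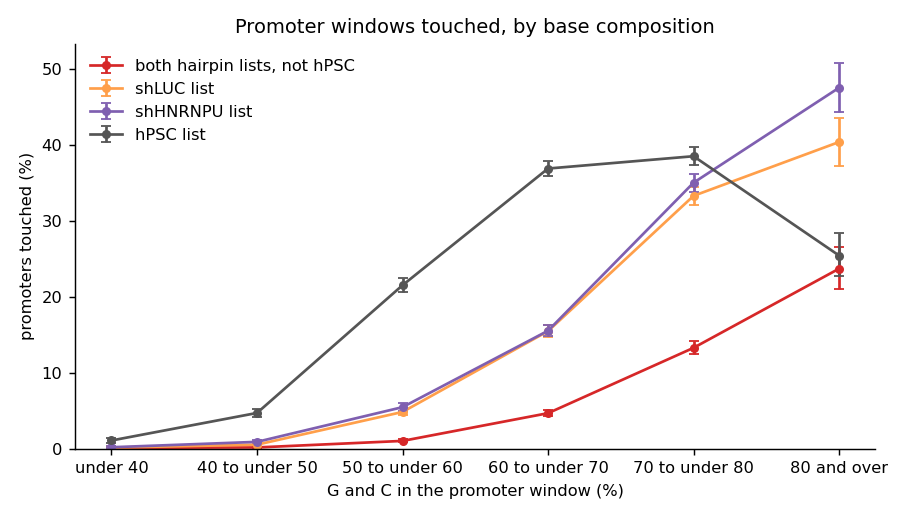
Share of promoter windows touched by at least 1 bp (vertical axis, %, bars are 95% Wilson intervals) by the G and C content of the window (horizontal axis, %), for members (red) and the complete shLUC (orange), shHNRNPU (purple) and hPSC (grey) lists. The hairpin lists and the members rise to the last class, where the hPSC list falls to 25.4%.

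Members held the whole window of 232 promoters in 229 genes. MspI's CCGG was in 97.0% of these windows, against 63.1% of all 35116 windows, and HaeIII's GGCC in 94.8% against 79.0%. The sites with fewer G and C were rarer there than in general: RsaI's GTAC in 20.3% against 29.8% and AluI's AGCT in 62.9% against 74.1%. PvuII's CAGCTG, which holds AGCT, was in 14.7% against 17.9%, and BamHI's GGATCC in 8.19% against 6.83%. The windows covered whole by regions in all 3 lists were much alike, with CCGG in 96.5%, GGCC in 94.7%, GTAC in 21.1% and AGCT in 65.6%, and CCGG was in 96.1% for regions only in shLUC and 95.5% for those only in shHNRNPU. In the 985 windows wholly covered by regions only in hPSC, CCGG was in 89.0% and GTAC in 30.3%. These are matches of letters in a window and not cut sites.

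Of 20033 protein-coding genes, 7575 (37.8%) held a member, and 2074 (10.4%) held a member and no hPSC region. That absence follows in part from the choice of members and from gene length: the median length was 21.0 kb for the genes with a member and no hPSC region, 92.7 kb for those with both, and 24.1 kb for all genes. Of genes under 20 kb, 16.9% held a member, and of genes over 500 kb, 95.9%. Per Mb of gene body, members fell from 21.8 in genes under 20 kb to 7.18 in those over 500 kb, and regions in all 3 lists from 8.07 to 0.758. Most genes with a member, 4598, held 1, and 59 held 10 or more.

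The genes with the most members were very long genes, several of them known from neurons. DAB1, an adaptor of reelin signalling, and RBFOX1, a splicing regulator, each held 17. DAB1 had 20 shLUC, 24 shHNRNPU and 17 hPSC regions in 1552 kb. RBFOX1 had 24, 24 and 22 in 2474 kb. TENM3, an adhesion protein that guides wiring, held 16, with 24 shLUC, 17 shHNRNPU and 19 hPSC regions. PRKCE, a protein kinase C, PTPRG, a receptor phosphatase, CAMTA1, a transcription activator, PTPRN2, a phosphatase-like protein of secretory vesicles, NRXN3, a presynaptic neurexin, and DLG2, a postsynaptic scaffold, held 15 each. PRKCE had the lowest untreated count of these 9 genes, with 17 shLUC, 15 shHNRNPU and 6 hPSC regions in 537 kb, so that every shHNRNPU region there matched a member. PTPRN2 was the other extreme, with 29 shLUC, 26 shHNRNPU and 24 hPSC regions. At the other end DMD, the dystrophin gene of 2220 kb on chromosome X, held no member and 1 hPSC region. Chromosome X as a whole was sparse, with 1.63 members per Mb against 8.28 over the autosomes. It held 475 shLUC and 556 hPSC regions in 156 Mb.

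Members were densest, among genes of at least 100 kb with at least 5 of them, in PRDM10, a zinc finger regulator, with 58.2 members per Mb against 19.4 hPSC regions per Mb. NRXN2, another neurexin, followed with 51.3 members and 34.2 hPSC regions per Mb. LMTK2, a membrane kinase, had 48.6 and 9.73, ECE1, the endothelin-converting enzyme, 46.8 and 39.0, and WNK2, a kinase of ion transport, 44.0 and 14.7. PCDHA1 had 44.2 members and 48.6 hPSC regions per Mb, but the genes of the protocadherin alpha cluster overlap, so these regions belong to its neighbours too. Over all protein-coding genes there were 10.8 members and 18.5 hPSC regions per Mb. Since these 6 genes were picked for their density of members, the order of members and hPSC regions in them is a description of the choice.

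Some sizeable genes held several members and no hPSC region. The 6 named here were picked for that, so the absence of hPSC regions in them is a description of the choice. STAG1, a cohesin subunit, held 7 members in 416 kb, with 9 shLUC, 7 shHNRNPU and 0 hPSC regions. One of them, chr3:136751987-136752386, straddled the start of STAG1, and the other 6 lay from 94.99 to 363 kb into the gene. The nearest hPSC region was between 61.3 and 245 kb from each member. ADAMTS18, a secreted metalloprotease, held 6 members, which were all of its shLUC and shHNRNPU regions, the first centred 0.393 kb inside its 5′ end. TNKS2, the poly-ADP-ribosyltransferase tankyrase 2, held 5, the first centred 0.328 kb inside. GLB1L3, a galactosidase-like gene, UBE3B, a ubiquitin ligase, and BRSK2, a kinase of neuronal polarity, held 4 each. In UBE3B the nearest hPSC region was only 0.888 kb from a member, just outside the gene, whereas in BRSK2 it was 52.6 kb away.

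Developmental transcription factors, short genes, held members often. In the list of lineage transcription factors, regulators that specify germ layers and early tissues, 19 of 32 genes (59.4%) held a member. The share was 37.8% over all protein-coding genes and 16.9% over those under 20 kb. Of the 32 genes, 10 held a member and no hPSC region, against 10.4% of all protein-coding genes and 1006 of the 9020 under 20 kb. The median length of the genes of the list was 7.06 kb. The list also holds NES, which encodes the filament protein nestin and is a marker and not a transcription factor. They held 41.7 members and 35.8 hPSC regions per Mb, and this was the sole list of the 9 with more members than hPSC regions. In 13 of the 19 genes there was exactly 1 region in each hairpin list. GATA6, an endoderm factor, held 2 members, which were all of its 2 shLUC and 2 shHNRNPU regions, and no hPSC region. TFAP2A, of ectoderm and neural crest, held 2 members beside 3 shLUC, 3 shHNRNPU and 2 hPSC regions. EOMES of mesendoderm, CDX2 of trophectoderm and gut, PAX6 of eye and forebrain, TWIST1 of mesenchyme, ZIC1 and LHX5 of the neural tube and HNF4A of liver each held 1 member, 1 shLUC, 1 shHNRNPU and 0 hPSC regions.

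Positions within these genes are given as a description, since many of the genes are only a few kb long. Of 14 members in genes with a known strand, 7 were centred within 1 kb downstream of it and 10 within 2.5 kb. The centre was 525 bp inside in CDX2 (chr13:27968591-27968990), 850 bp in EOMES (chr3:27721664-27722063), 524 bp in ZIC1 and 223 bp in LHX2, whereas in PAX6 it was 7255 bp inside. Some untreated regions lay close by: the gap to the nearest hPSC region ranged from 115 bp in POU3F2 to 58.5 kb in HNF4A, with a median of 9.46 kb. Requiring that no hPSC region lie within 1 kb left 16 of the 19 genes. The promoter windows of the list had a median of 62.5% G and C, against 58.7% over all windows. Of the 22 genes of the list with such windows, members touched those of 2, LHX2 and TFAP2A, and hPSC regions those of 5. At the promoter windows the hPSC list was thus ahead. Over all 27305 genes with windows, members touched those of 1435 and hPSC regions those of 7188.

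**Figure D5:**
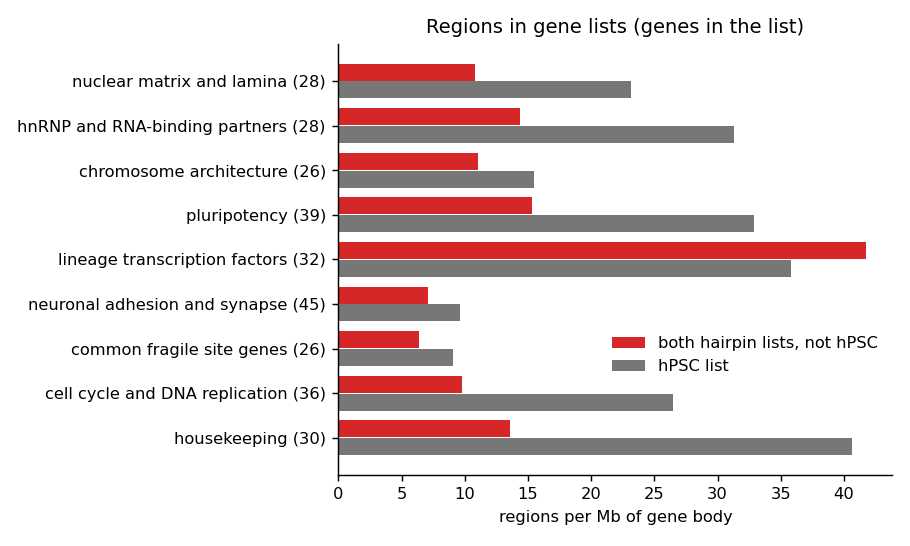
Members (red) and hPSC regions (grey) per Mb of gene body (horizontal axis) in the 9 gene lists (vertical axis, with the number of genes in each). Lineage transcription factors, at 41.7 and 35.8, are the sole list in which the red bar is the longer.

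Families defined by gene symbol were also counted, chosen after those counts were seen. Over 189 genes of the HOX, FOX, SOX, PAX, TBX, GATA, LHX, IRX, NKX, POU and ZIC families, 96 (50.8%) held a member, 78 an hPSC region and 51 a member with no hPSC region. Counted by regions they held 145 members and 163 hPSC regions, so the excess of members over hPSC regions in the lineage list was absent here. The median length was 6.35 kb. Over all protein-coding genes, 37.8% held a member, 57.8% an hPSC region and 10.4% a member with no hPSC region. Of those under 20 kb, 16.9% held a member. The counts of single families have no background of their own and are a description. Of the 39 HOX genes, which pattern the body axis, 18 held a member, 13 an hPSC region and 13 a member without an hPSC region. Of 14 NKX homeobox genes, 11 held a member and 5 an hPSC region, and of 6 IRX genes, 5 and 2. Genes with an hPSC region were the more numerous in the SOX family, with 7 of 19 holding a member and 11 an hPSC region, in the TBX family, with 5 of 16 and 9, and in the PAX family, with 6 of 9 and 7. Of 16 POU genes, 8 held a member and 8 an hPSC region, and of 51 FOX genes, 24 and 17. Many genes of a family lie in clusters and are not separate cases.

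Pluripotency genes held members at a share somewhat below that of all genes. Of 39 genes found in the annotation out of 40, 12 (30.8%) held a member, 21 an hPSC region and 7 a member without an hPSC region, where all protein-coding genes gave 37.8%, 57.8% and 10.4%. The genes of the list were shorter, with a median of 13.5 kb against 24.1 kb. Of all genes under 20 kb, 16.9% held a member, and of those of 20 to 100 kb, 43.0%. LIN28B, an RNA-binding repressor of let-7, held 4 members beside 6 shLUC, 7 shHNRNPU and 3 hPSC regions. TFCP2L1, a factor of the naive state, held 3 members, all of its shLUC and shHNRNPU regions, and no hPSC region, and one of them was centred 0.334 kb inside its 5′ end. TERT, the telomerase catalytic subunit, also held 3, with 1 hPSC region, and KLF17, a factor of the early embryo, held 2. POU5F1, which encodes OCT4, had no region in any list, NANOG had 1 hPSC region, and SOX2 had 1 region in each list, shared by all 3.

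Among the 28 genes of the nuclear matrix and lamina, 15 (53.6%) held a member, 22 an hPSC region and 1 a member with no hPSC region. Over all protein-coding genes the shares were 37.8%, 57.8% and 10.4%, and the genes of the list were longer, with a median of 57.5 kb against 24.1 kb. That gene was LMNB2, with 2 members, 2 shLUC, 2 shHNRNPU and 0 hPSC regions. SYNE2 held 8 members beside 12 hPSC regions, LMNA, which encodes lamins A and C, 2 beside 5, and MATR3, which encodes the matrix protein matrin 3, 2 beside 3. HNRNPU, the gene the hairpin targets, held 1 member, chr1:244863242-244863641, centred 1102 bp inside its 5′ end and 619 bp from an hPSC region. It had 1 shLUC, 2 shHNRNPU and 1 hPSC region. These positions say nothing of the level of HNRNPU itself.

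Of 28 genes for hnRNP proteins and other RNA-binding partners, 9 (32.1%) held a member and 19 an hPSC region. Over all protein-coding genes 37.8% held a member. The median length was 18.3 kb in this list and 24.1 kb over all genes. RALY, an hnRNP of the C group, held 3 members beside 2 hPSC regions, and HNRNPA2B1, HNRNPF and PTBP1 held 1 each. PTBP1, a splicing repressor, was the gene of this list with a member and no hPSC region. Of 26 genes of chromosome architecture, which form or load cohesin and condensin or cut and bridge DNA, 13 (50%) held a member and 20 an hPSC region. Their median length was 60.1 kb. Over all protein-coding genes the shares were 37.8% and 57.8%, and of genes of 20 to 100 kb 43.0% held a member. PDS5B, a regulator of cohesin, held 6 members, all of its 6 shLUC and 6 shHNRNPU regions, beside 2 hPSC regions. Its relative PDS5A held 2 beside 2, and NCAPH2, a condensin subunit, held 1 with no hPSC region.

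Very long genes of neuronal adhesion and of common fragile sites nearly all held members. Of 45 genes of the first list, 39 held a member, at 7.11 members and 9.60 hPSC regions per Mb, and of 26 of the second, 25, at 6.41 and 9.10. Genes over 500 kb in general, of which 95.9% held a member at 7.18 per Mb, had values close to these. CTNNA3, an alpha catenin, held 13 members beside 11 hPSC regions, and FHIT, at the fragile site FRA3B, 13 beside 8. AUTS2, a neurodevelopmental regulator, held 13 beside 21. Of 36 cell cycle and replication genes, 12 (33.3%, near the 37.8% of all genes) had a member and 29 an hPSC region, with 2 members each in CDC45 and RPA3. Of 30 housekeeping genes, with a median length of 8.18 kb, 6 (20%) held a member and 16 an hPSC region, and ACTB and LDHA had a member without one. Of all protein-coding genes under 20 kb, 16.9% held a member. Over all protein-coding genes, 57.8% held an hPSC region and 10.4% a member without one.

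Members were scattered along chromosomes and seldom adjacent. The median gap between neighbouring members was 69.7 kb, and 634 of them, or 2.63% (2.44 to 2.84), had another member within 5 kb. A member was present in 2843 of the 2912 windows of 1 Mb that held a region of any list, with a median of 8 and at most 40 in a window, at the gene-dense start of chromosome 19 (chr19:1000001-2000000). Windows with a member and no hPSC region numbered 43. Across windows the counts of members and hPSC regions rose together (Spearman's rho 0.70, Pearson's r 0.68, 2912 windows). This is a description, since windows also share gene density and mappability.

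The share of shLUC regions that were members varied around 61.5% (quartiles 52.6 and 70) over the 1916 windows with at least 10 shLUC regions. At chr19:22000001-23000000, which holds a cluster of zinc finger genes that includes ZNF676, ZNF208 and ZNF257, 17 of 18 shLUC regions were members, beside 20 shHNRNPU regions and 1 hPSC region. At chr1:81000001-82000000, where ADGRL2, a latrophilin adhesion receptor, is the annotated protein-coding gene, all 14 shLUC regions were members, yet 14 hPSC regions lay in the same window at other positions. At chr3:54000001-55000000, around CACNA2D3, a calcium channel subunit, 3 of 13 shLUC regions were members, with 4 shHNRNPU and 13 hPSC regions. A high share of members was thus found both where the untreated list was nearly empty and where it was as full as the shLUC list.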

How the data were processed

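MAR-seq was measured in 6 samples of the H1 line, 2 each of untreated, shHNRNPU and shLUC cells. Per the labels, nuclei were prepared in a detergent buffer, and the fixed material was cut by 6 restriction enzymes before paired-end sequencing. The authors deposited 1 list of regions per treatment, on hg38, with cutadapt, Bowtie2, SAMtools, MACS2 and deepTools named in the submitters' processing notes without versions; how the samples were combined and the threshold for a region are not given in the sources used here. The deposited columns used are chromosome, start and end, and the score column was 0 in all regions. The region names of the hPSC list carry the tag rp1, whose meaning is not given. Whether both untreated samples entered that list is thus unknown. Members were chosen from the 3 lists as stated above. The members and gene lists were chosen with earlier results of these data known.

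Positions were compared with the RefSeq gene table (59661 genes, 20033 protein-coding) and 35116 promoter windows of GRCh38.p14, the same assembly as hg38 on the main chromosomes. The promoter table has no chromosome 8. Python 3.11.15, numpy 2.4.6, pandas 2.3.3 and matplotlib 3.10.9 were used, and the overlap code was tested on simulated data. Nothing states that the samples were separate cultures. The genes named were the 8 with the most members, the 6 densest of at least 100 kb with at least 5, the 6 with the most members and no hPSC region, the 4 richest of each of 9 lists, and HNRNPU; others were named after their values were seen. Alternatives tried were a 50% overlap, no hPSC region within 1 kb, autosomes only, the shHNRNPU list as the source, all genes, and other distances.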

Additional observations from a re-analysis of the deposited data

How the results depend on the processing

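No paired analysis was possible because each treatment has 1 list, which carries no sample numbers; leaving out a sample was not possible for the same reason. Base composition and enzyme sites of whole members were not analysed here, since no genome sequence was used. Of 53 alternative values of 12 results, 35 stayed within the interval of the main value or, for counts, within 1.5 times of it, and 18 moved. Only the differences of shares could change sign, and none of them did. With at least 50% overlap, members within 1 kb of a gene end were 10.6%, their difference from regions in all 3 lists was -34.3 points, and members within 1 kb of a start were 10.1%. With no hPSC region within 1 kb these became 7.84% at gene ends and 7.38% at starts, and members touched 18.4% of promoters with at least 80% G and C. With all genes, 67.2% of members lay in a gene body (difference -6.18 points) and 14.7% near a gene end (difference -40.3 points). Counting any overlap gave 56.0% in gene bodies (difference -14.2 points). Within 5 kb of a gene end lay 19.9% (difference -34.7 points), within 200 bp of a start 4.28%, and within 10 kb of another member 14.0%. Counting each member once, the median gene length was 123 kb in place of 63.9 kb. Members covered the whole window of 3.90% of promoters with at least 80% G and C. The settings for start sites, GC-rich promoters and lineage factors were chosen after seeing the data. The lists hold no heights or depths, so a region absent from a list may have fallen just under the threshold of its caller.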

Other observations

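MicroRNA hairpins of the RefSeq table that members touched numbered 26, among them MIR7846 and MIR4632 on chromosome 1. Some shared a member, as did MIR3074 with MIR24-1 and MIR369 with MIR410. The share of all microRNA hairpins, and the counts for the other classes of regions, were not worked out, so the number is a description.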
